A study of Mus musculus with 17 samples.

Results

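The genes described here are interferon-stimulated genes, a set of 36 listed mouse genes that cells transcribe in answer to interferons. They were taken as listed, and each was read from 1 probe set, the one with the highest mean over all arrays. Of the 36, 33 had a usable probe set, among 12393 genes measured in all. Type I members (Oas, Ifit and Mx genes) numbered 8 of 9 listed, interferon-gamma members (Gbp2, Gbp3, Iigp1, Igtp, Irgm1, Tap1, Psmb8 and Psmb9) 8 of 8, and the other members 17 of 19. The probe set of Isg15 is paired with several genes and gave no value, and Ifi44 and Xaf1 were not analysed here. They were measured in 17 mammary tumours of FVB mice, 1 Affymetrix array each, with total RNA as the source. All tumours carried Myc T58A, a mutant Myc, driven by the MMTV promoter, which is active mainly in mammary epithelium, and all were labelled as low expressing. By histology 6 were EMT (epithelial to mesenchymal transition), 9 Squamous, 1 Papillary and 1 Microacinar. No age, treatment or normal mammary tissue was given, and the numbers after a histology serve as names.

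Interferons are secreted when cells sense foreign or misplaced nucleic acid, and by activated T and NK cells. Type I interferons bind the Ifnar receptor and drive a complex that contains Stat2 and Irf9 to a DNA element called ISRE, whereas interferon-gamma binds the Ifngr receptor and drives STAT dimers to a palindromic element called GAS. The type I members encode antiviral effectors, and the interferon-gamma members encode GTPases of cell-autonomous defence and parts of the class I antigen presentation path, although many of these genes answer to both ligands. In mammary tumours such genes can be transcribed by tumour cells and by infiltrating leukocytes.

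The DNA around the starts of the members was read from RefSeq promoter windows on GRCm38.p6, which hold 250 bases before and 50 after a start that RefSeq gives the gene, which need not be its outermost one. A window was found for 24 of the 33 measured members. Both strands were searched for ISRE, spelled GAAA, then any 2 bases, then GAAA, and GAS, spelled TTCNNNGAA, and matches of the 2 motifs were allowed to overlap. ISRE occurred in 12 of the 24 members, 2 of 5 type I, 4 of 7 interferon-gamma and 6 of 12 others, against 3.44% of all 32851 windows and 3.99% of all 27025 genes. GAS occurred in 7 of 24, 1 of 5 type I, 2 of 7 interferon-gamma and 4 of 12 others, against 8.30% of windows and 9.55% of genes. The windows of Tap1 and Psmb9, which run in opposite directions, share 275 bases. The 250 bases before that start are printed for 6 members, 5′ to 3′ on the gene's own strand, with each motif match in capitals. Ifit1 (chr19:34640639-34640888, plus strand) is shown as a type I member with 2 ISRE matches, and Oasl1 (chr5:114922990-114923239, plus strand) as the type I member that followed the others least. Gbp2 (chr3:142620413-142620662, plus strand) and Igtp (chr11:58199306-58199555, plus strand) stand for the interferon-gamma members, and in Igtp a GAS match precedes the ISRE match. Rsad2 (chr12:26456453-26456702, minus strand) and Cmpk2 (chr12:26468965-26469214, plus strand) are neighbours on chromosome 12, and of these Rsad2 alone has a match. The last 97 bases shown for Oasl1 and the last 98 for Cmpk2 lie inside the annotated gene, whose outermost start is further upstream, and the other 4 stretches end at the outermost start. A match describes the letters only, and the missing matches of Oasl1 and Cmpk2 say only that these letters are not in their windows.
Ifit1: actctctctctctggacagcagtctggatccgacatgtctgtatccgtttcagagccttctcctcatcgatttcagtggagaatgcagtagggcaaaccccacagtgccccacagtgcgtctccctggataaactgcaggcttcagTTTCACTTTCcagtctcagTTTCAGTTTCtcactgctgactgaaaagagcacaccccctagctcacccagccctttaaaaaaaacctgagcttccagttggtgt
Oasl1: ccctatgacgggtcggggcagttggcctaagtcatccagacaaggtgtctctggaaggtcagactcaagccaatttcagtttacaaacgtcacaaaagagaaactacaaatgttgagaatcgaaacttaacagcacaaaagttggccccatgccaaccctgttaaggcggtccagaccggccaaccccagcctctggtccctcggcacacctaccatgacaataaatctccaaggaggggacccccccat
Gbp2: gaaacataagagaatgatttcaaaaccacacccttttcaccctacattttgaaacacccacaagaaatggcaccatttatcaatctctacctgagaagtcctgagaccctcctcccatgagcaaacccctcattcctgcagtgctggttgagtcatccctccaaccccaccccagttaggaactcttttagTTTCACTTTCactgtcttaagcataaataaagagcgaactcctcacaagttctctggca
Igtp: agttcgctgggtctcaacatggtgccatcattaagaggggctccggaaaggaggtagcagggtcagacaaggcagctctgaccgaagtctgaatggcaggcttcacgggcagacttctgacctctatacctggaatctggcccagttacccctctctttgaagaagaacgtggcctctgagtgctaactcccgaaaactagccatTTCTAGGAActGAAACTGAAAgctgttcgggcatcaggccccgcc
Rsad2: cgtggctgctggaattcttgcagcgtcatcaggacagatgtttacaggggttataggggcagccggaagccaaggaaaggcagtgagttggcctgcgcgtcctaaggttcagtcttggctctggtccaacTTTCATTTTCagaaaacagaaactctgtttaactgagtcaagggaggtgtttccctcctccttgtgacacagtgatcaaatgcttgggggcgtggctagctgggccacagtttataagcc
Cmpk2: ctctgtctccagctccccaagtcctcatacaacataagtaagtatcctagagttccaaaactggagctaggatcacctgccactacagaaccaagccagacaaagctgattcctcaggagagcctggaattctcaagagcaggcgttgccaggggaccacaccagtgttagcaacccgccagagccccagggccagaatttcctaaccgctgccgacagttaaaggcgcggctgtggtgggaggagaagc

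All values below are log2 values as deposited. The arrays have titles of 2 formats, 14 numbered and 3 (EMT 5, EMT 6 and Squamous 9) with TM after a number. The TM arrays had a wider spread over probe sets, with SDs of 2.46 to 2.51 against 2.25 to 2.29, and 13.2% of all probe sets had an equal value on the 3 TM arrays, which held for 0 members. Markers of mammary epithelium averaged 10.33 to 12.19 in Squamous tumours, between 8.69 and 11.78 in EMT 1 to EMT 4 and 7.30 in both EMT 5 and EMT 6, and they were uneven among these. Krt8, a keratin, was at 7.35 in EMT 5 and at 12.50 in EMT 6, inside the Squamous range, while Epcam and Cdh1, of epithelial adhesion, lay below the Squamous range in EMT 4, EMT 5 and EMT 6. Squamous 7 and Squamous 8 share a title number, as do Squamous 5 and the Microacinar tumour, and the labels do not say which tumours came from separate mice, so p-values measure only the spread between these samples. The number of arrays limits their precision. Title format was a term of the comparison of EMT with Squamous tumours. These are bulk tumours, in which fewer cells of a type and less RNA per cell cannot be told apart.

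Of the interferon-stimulated genes it was first asked whether they differ between the 2 histologies with replicates. No member passed the test: 0 of 33 were called by limma with Benjamini-Hochberg adjustment at 0.05, with a background of 0.00% of all genes called. The interferon-gamma members had a median log2 change, the fitted EMT minus Squamous difference, of −0.42, and 8 of 8 were below 0 in the fit with the title format term. Without that term Psmb8 at 0.061 and Psmb9 at 0.11 were above 0. The type I members had a median of 0.04 with 5 higher and 3 lower, and the others −0.13 with 13 of 17 lower. Over all genes the median was 0.01, and 48.2% were below 0, against 24 of the 33 members. At an unadjusted p under 0.05 there were 0 members, against 14.3% of all genes, and the smallest adjusted p of a member was 0.404, for Cmpk2. Without the title format term the medians were 0.06 over all members, 0.43 for type I, −0.16 for interferon-gamma and 0.08 for the others, so the directions of the first and last depend on that term. Without EMT 2 they were 0.00, 0.21, −0.15 and −0.01.

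**Figure D1:**
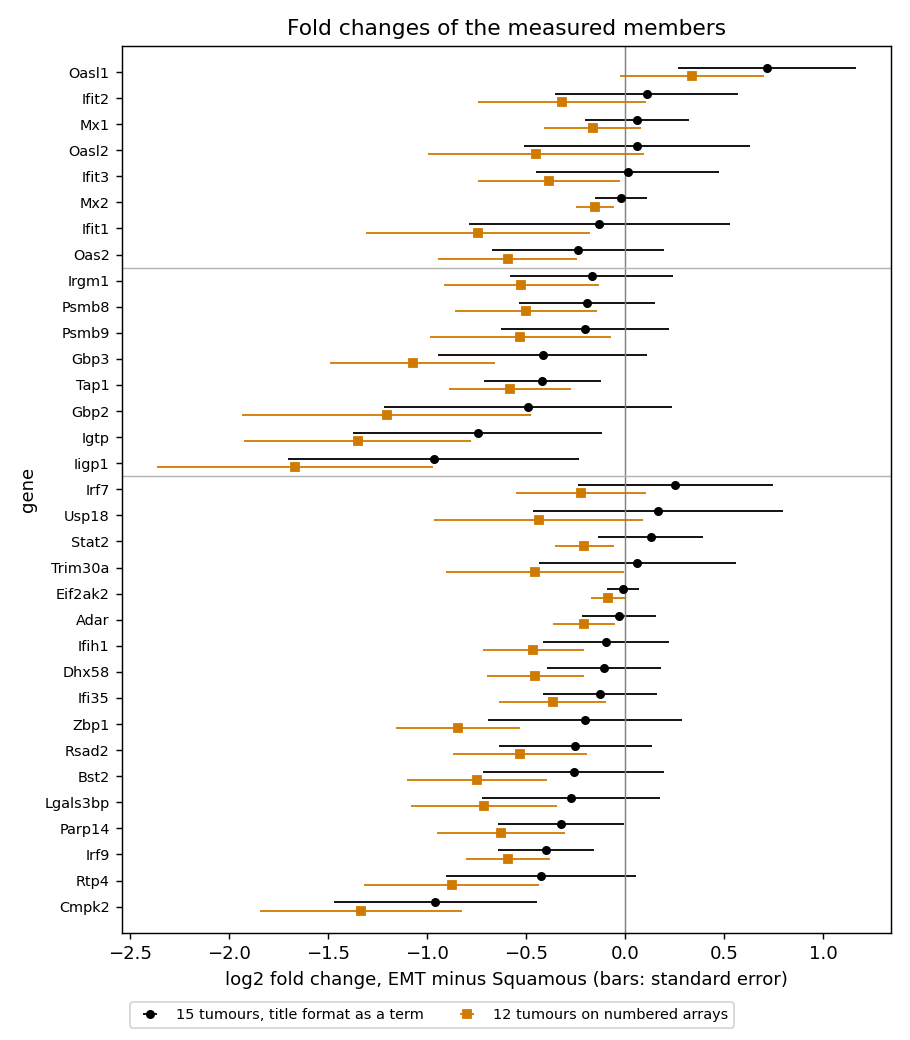
Log2 fold change, EMT minus Squamous, of each measured member with its standard error, from all arrays with a title format term and from the numbered arrays alone. Among numbered arrays 32 of 33 members lie below 0, and with all arrays 24 do.

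Among type I members Oasl1, a relative of the oligoadenylate synthetases, had the largest change. Its values in EMT tumours ran from 6.63 through a median of 7.35 to 10.11, and in Squamous tumours from 6.58 through 7.03 to 7.52. EMT 5 at 10.11, EMT 2 at 8.89 and EMT 6 at 7.63 lay above every Squamous tumour, and the other EMT tumours lay within the Squamous range. The log2 change was 0.72 (SE 0.45, limma adjusted p = 0.479). Oas2, which makes the oligoadenylates that switch on RNA decay, ran from 7.12 through 7.54 to 9.60 in EMT tumours and from 7.17 through 7.70 to 8.99 in Squamous tumours. Only EMT 5 exceeded the Squamous range, and EMT 3 and EMT 6 fell just under it. The log2 change of Oas2 was −0.24 (SE 0.43, adjusted p = 0.836).

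Ifit1, which binds viral RNA with an incomplete cap, had the widest EMT values of the members. They ran from 4.74 in EMT 2 through a median of 6.50 to 10.71 in EMT 5, against 4.82, 6.45 and 7.76 as the lowest, median and highest in Squamous tumours. The groups overlapped apart from these 2 EMT tumours, and the log2 change was −0.13 (SE 0.66, adjusted p = 0.945). Oasl2, the neighbour of Oasl1 on chromosome 5, ran from 6.39 through 7.68 to 10.77 in EMT and from 6.29 through 7.49 to 9.09 in Squamous tumours, with only EMT 5 outside. Ifit2, Ifit3, Mx1 and Mx2, an RNA-binding pair and a pair of dynamin-like GTPases, had log2 changes of 0.11, 0.01, 0.06 and −0.02.

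Iigp1, an immunity-related GTPase that attacks the vacuoles of intracellular pathogens, had the largest change of the interferon-gamma members. It ran from 6.93 through 8.13 to 11.51 in EMT tumours and from 7.81 through 8.68 to 11.62 in Squamous tumours. EMT 2 at 6.93 and EMT 3 at 7.79 lay below all Squamous tumours, EMT 5 lay near the top, and Squamous 3 (11.38) and Squamous 8 (11.62) stood above the other Squamous tumours. The log2 change was −0.97 (SE 0.73, adjusted p = 0.560). Igtp, a GTPase of the same family, ran from 6.54 through 7.90 to 10.94 in EMT and from 7.68 through 8.22 to 10.53 in Squamous tumours. Here too EMT 2 and EMT 3 were below the Squamous range and only EMT 5 above it, with a log2 change of −0.75 (SE 0.63, adjusted p = 0.605).

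Gbp2, a guanylate-binding protein, ran from 7.25 through 8.62 to 11.44 in EMT and from 7.63 through 8.77 to 11.69 in Squamous tumours. Only EMT 2 left the Squamous range, and the log2 change was −0.49 (SE 0.73, adjusted p = 0.789). For Gbp3 and Tap1, the latter a peptide transporter of class I presentation, the log2 changes were both −0.42. Psmb8 and Psmb9, subunits of the immunoproteasome, were at −0.19 and −0.21, and Irgm1 at −0.17.

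**Figure D2:**
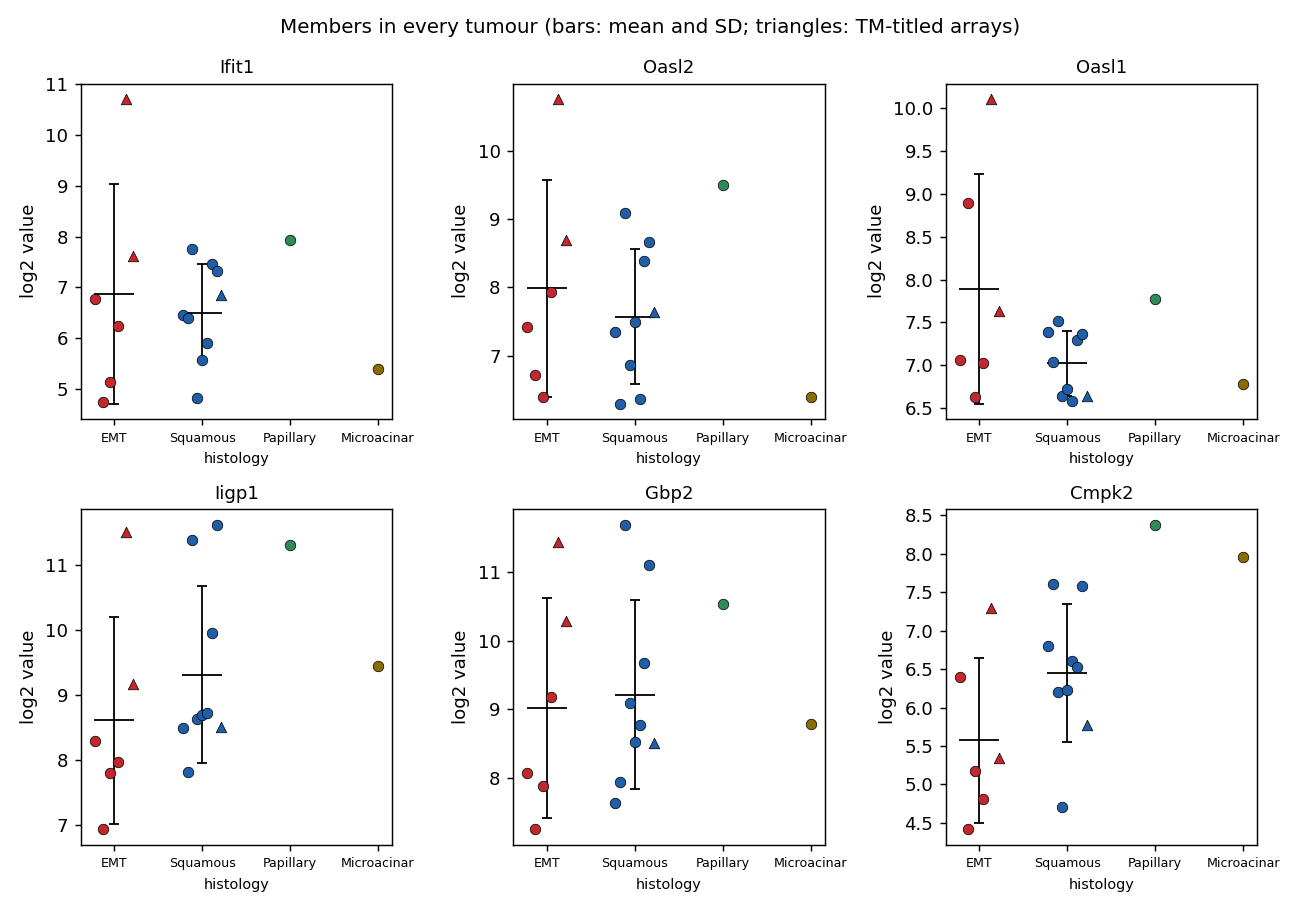
Log2 values of named members in each tumour by histology, with triangles for TM arrays and bars for the mean and SD of the EMT and Squamous groups. EMT 5 is the highest EMT tumour in all 6 panels, and Squamous 3 and Squamous 8 are the highest Squamous tumours for Iigp1 and Gbp2.

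Of the other members, the transcription factors of the type I response had log2 changes of mixed sign in the fit with the title format term. Irf9 ran from 6.67 through 7.63 to 8.81 in EMT and from 7.46 through 7.92 to 8.41 in Squamous tumours, with EMT 2 below and EMT 5 above all Squamous tumours. Its log2 change was −0.40 (SE 0.24, adjusted p = 0.462). Stat2, the partner of Irf9, ran from 6.21 through 6.66 to 8.47 against 6.29, 6.49 and 7.04, and Irf7, the factor that amplifies type I interferon, from 7.02 through 7.81 to 11.31 against 6.75, 7.82 and 8.38. Their log2 changes were 0.13 (SE 0.26) and 0.25 (SE 0.49). Within each title format the signs were alike. Among numbered arrays Irf9, Stat2 and Irf7 were at −0.59, −0.21 and −0.22, and on TM arrays none of them was below 0. In all 3 factors EMT 5 stood above the Squamous range. Of the other EMT tumours, EMT 2 lay below that range for Stat2 and Irf9, and EMT 6 at 7.05 lay just above it for Stat2.

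Cmpk2, a mitochondrial nucleotide kinase, had a log2 change of −0.96 (SE 0.51, limma adjusted p = 0.404). Its other probe set gave only −0.10. In the probe set used, Cmpk2 ran from 4.42 through 5.26 to 7.29 in EMT tumours. It ran from 4.71 through 6.53 to 7.61 in Squamous tumours, with 8.38 in the Papillary and 7.96 in the Microacinar tumour. The EMT median of 5.26 lay below the lower quartile over genes, which was 5.57 to 5.86 by array. Only EMT 2 lay outside the Squamous range, and both remaining histologies lay above it. Rtp4, a chaperone of cell-surface receptors, ran from 7.25 through 8.80 to 10.78 in EMT and from 8.27 through 9.18 to 10.08 in Squamous tumours, with a log2 change of −0.43 (SE 0.48, adjusted p = 0.714). Usp18, which strips Isg15 from proteins and restrains the type I receptor, ran from 5.69 through 7.02 to 10.91 in EMT and from 5.32 through 7.41 to 7.91 in Squamous tumours. For Rtp4 EMT 2 was again below and EMT 5 above the Squamous range, and for Usp18 only EMT 5 lay outside it among the EMT tumours. The RNA sensors Ifih1 and Dhx58 had log2 changes of −0.10 and −0.11, Zbp1, a sensor of Z-form nucleic acid, −0.20, and Eif2ak2, the kinase that halts translation on double-stranded RNA, −0.01. The remaining members ran from −0.33 for Parp14 to 0.16 for Usp18.

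Within each title format the members took opposite directions. Among the numbered arrays, 4 EMT against 8 Squamous tumours, 32 of 33 members were below 0, against 50.1% of all genes, and Oasl1 at 0.34 was the exception. The median was −0.52 over all members, −0.35 for type I, −0.83 for interferon-gamma and −0.46 for the others, and 0 members were called, with 0.00% of all genes called and a smallest adjusted p of 0.471 (limma). At an unadjusted p under 0.05 there were 6 members, all lower in EMT (Irf9, Gbp3, Iigp1, Igtp, Zbp1 and Cmpk2), against 4.07% of all genes in that direction. Without EMT 2 this count was 0 and 33 of 33 members were below 0, Oasl1 included, and without Squamous 4 it was 12. It was 9 without EMT 1, Squamous 2 or Squamous 6, 3 without EMT 3 and 4 without Squamous 7. For 20 of 33 members all 4 numbered EMT tumours lay below the median of the numbered Squamous tumours, which held for 10.2% of genes.

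On the TM arrays, with EMT 5 and EMT 6 against Squamous 9 alone, 0 members were below 0. The median was 1.37 over all members, 1.71 for type I and 1.47 for interferon-gamma. No share or median over all genes is given for these arrays, so that count lacks a background. The log2 change on TM arrays minus that on numbered arrays had a median of 1.87 over the members, against 0.03 over all genes. An interaction of histology with title format, added after the data were seen, called 0 members, with 0.460% of all genes called. At an unadjusted p under 0.05 there were 12 members, against 9.22% of all genes. The TM arrays hold only 1 Squamous tumour, so the title format and the tumours that carry it cannot be told apart.

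The members varied more from tumour to tumour than most genes did. Over the 8 numbered Squamous tumours the median SD was 0.66 for the members, 0.68 for type I, 0.87 for interferon-gamma and 0.57 for the others, against 0.20 for all genes. Gbp2 and Iigp1 varied most, from 7.63 to 11.69 and from 7.81 to 11.62. Mx2 and Eif2ak2 varied little, with SDs of 0.17 and 0.14.

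**Figure D3:**
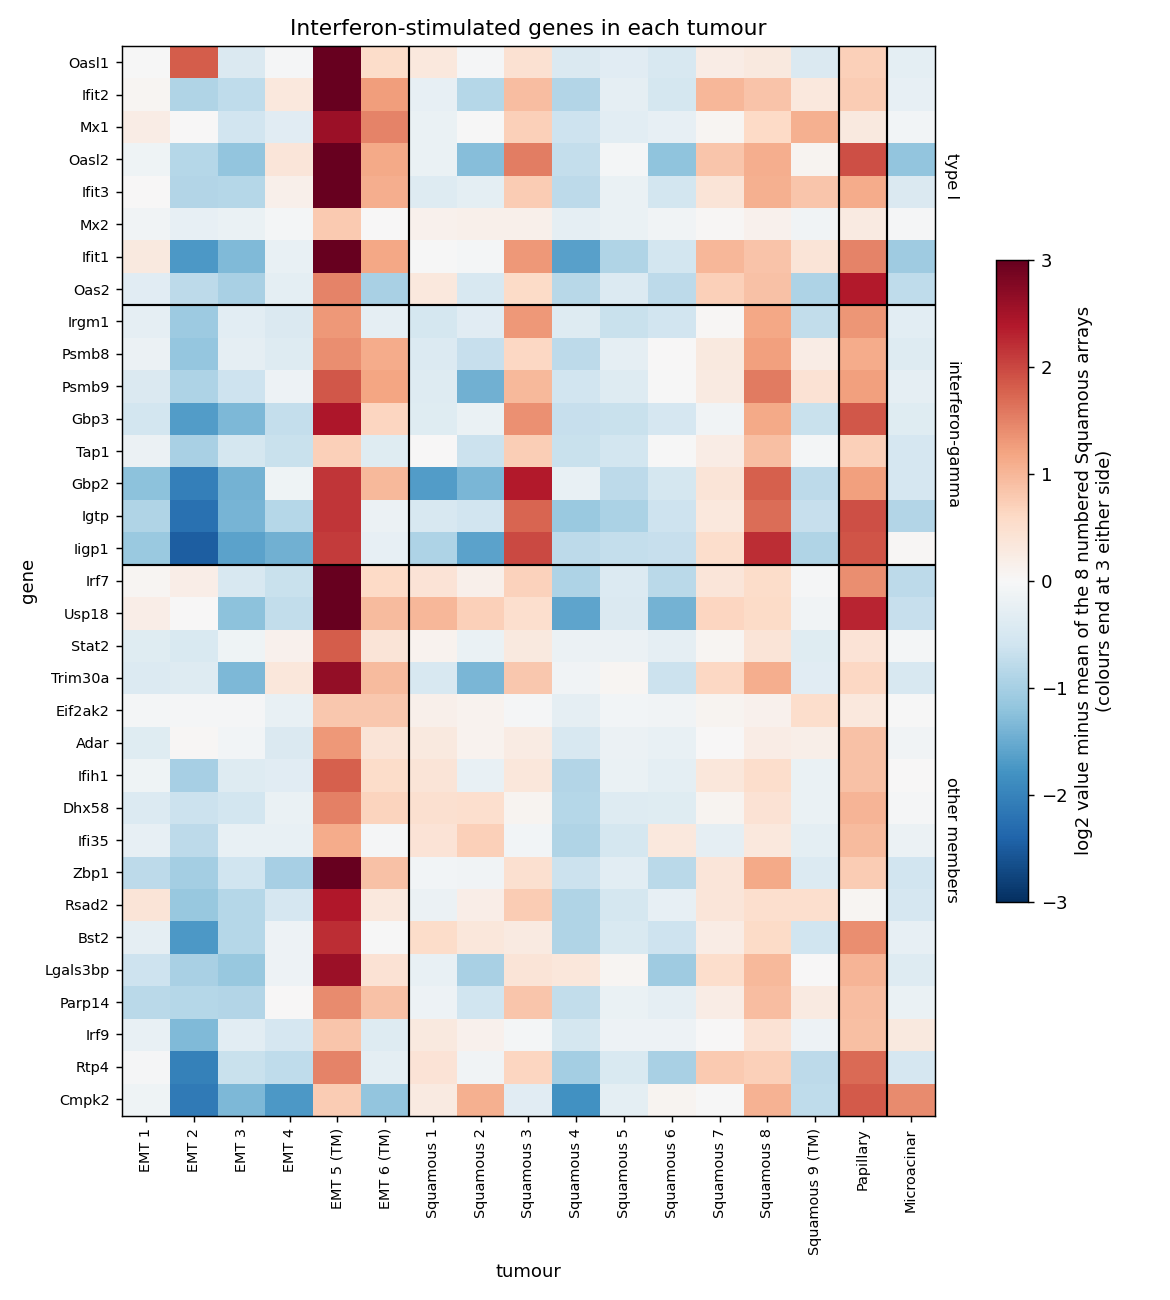
Log2 value of each measured member in each tumour, minus its mean over the 8 numbered Squamous arrays, with colours ending at 3 on either side. EMT 5 and the Papillary tumour are high across the groups, and EMT 2 is low in most. Squamous 3 and Squamous 8 are highest above the mean in the interferon-gamma members. They are less so in the type I members, with averages of 0.80 and 0.73.

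EMT 5 held high levels of most members. It lay above all Squamous tumours for 28 of 33 members, against 27.1% of all genes. Relative to the numbered Squamous mean, its type I members were 2.77 higher on average, its interferon-gamma members 1.76 and the others 1.96. EMT 6, the other EMT tumour on a TM array, was above all Squamous tumours for 9 members, against 26.8% of genes, with averages of 0.71, 0.36 and 0.34. Squamous 9, also on a TM array, had averages of 0.15, −0.40 and −0.16.

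The Papillary tumour, 1 array without a replicate, came next. It lay above all Squamous tumours for 21 of 33 members, against 8.26% of all genes, and was the highest of the 14 numbered arrays for 21, against 4.46% of genes. It was the highest of all 17 tumours for 5 members, against 3.20% of genes. Its averages were 1.12 for type I, 1.41 for interferon-gamma and 1.02 for the others, and Oas2 reached 10.47, Iigp1 11.30, Usp18 9.20 and Rtp4 10.97. The Microacinar tumour lay above all Squamous tumours for 1 member, Cmpk2, against 11.1% of genes, with averages of −0.51, −0.40 and −0.18.

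EMT 2 lay below all Squamous tumours for 19 members, against 19.2% of genes. Its averages were −0.44 for type I, −1.58 for interferon-gamma and −0.84 for the others. Oasl1, at 8.89, was the one member above all Squamous tumours in EMT 2, while Oasl2 was at 6.72. Among Squamous tumours the interferon-gamma average was 1.46 in Squamous 8, 1.39 in Squamous 3 and 0.24 in Squamous 7, and it lay between −0.86 and −0.37 in the other 6. Squamous 7 and Squamous 8, which carry the same title number, were thus unlike in the interferon-gamma members. Their type I averages were closer, at 0.53 and 0.73.

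The type I and interferon-gamma members were then set beside each other. They rose and fell together over the tumours. The interferon-gamma members held together most tightly, while the type I members correlated with one another about as well as with the interferon-gamma members. Over the 14 numbered arrays the median correlation was 0.77 between type I members, 0.91 between interferon-gamma members and 0.80 between the groups, against −0.01 between members and all other genes. The lowest value within type I was 0.16 and the lowest within interferon-gamma 0.81. These arrays share the authors' processing and hold 4 histologies, and the values are descriptions without a test. Within the 8 numbered Squamous tumours alone the medians were 0.84, 0.91 and 0.79.

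Each of the 8 type I and 8 interferon-gamma members correlated more with the mean of the rest of its own group than with the mean of the other group. Oasl1 followed its group least, with 0.29 for type I and 0.08 for interferon-gamma. Among the other members 11 of 17 were closer to type I, such as Irf7 (0.85 against 0.64) and Usp18 (0.80 against 0.54). The remaining 6 were Irf9, Stat2, Zbp1, Parp14, Lgals3bp and Cmpk2, with Parp14 at 0.94 for interferon-gamma against 0.89. The difference between these paired values was small for most members: Rsad2 had 0.75 and 0.73, and Bst2 had 0.78 and 0.75.

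**Figure D4:**
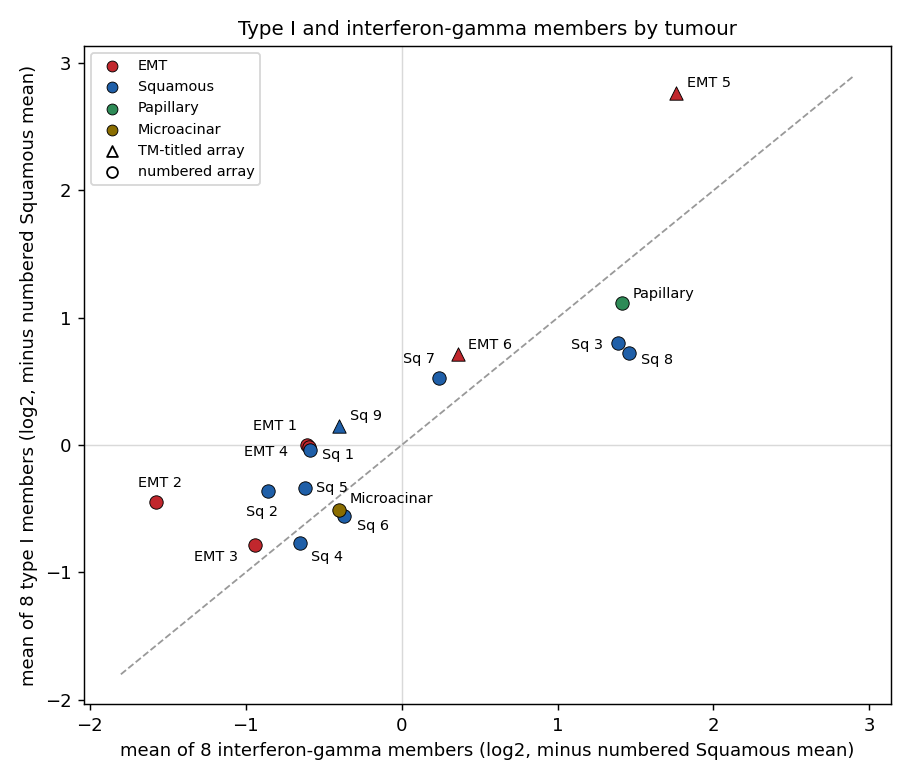
Mean of the 8 type I members against the mean of the 8 interferon-gamma members in each tumour, both minus the numbered Squamous mean, with a dashed line of equality and triangles for TM arrays. EMT 5 lies furthest above the line after EMT 2, and Squamous 8 and Squamous 3 lie furthest below it.

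The 2 group averages had a Pearson correlation of 0.87 and a Spearman correlation of 0.71 over the numbered arrays, and the Pearson value was 0.77 without Squamous 8 and the Papillary tumour, the 2 furthest from the median. The type I average minus the interferon-gamma average was 1.13 in EMT 2, 1.01 in EMT 5, 0.61 in EMT 1, 0.59 in EMT 4, 0.35 in EMT 6 and 0.15 in EMT 3. In Squamous tumours it ran from −0.73 in Squamous 8 and −0.59 in Squamous 3 to 0.55 in Squamous 1 and Squamous 9. All 6 EMT tumours were thus above 0, and 4 of 9 Squamous tumours were below it, with overlap between the groups. The 0 is set by the mean of the 8 numbered Squamous tumours, so some of these must lie below it. The signs are therefore no neutral contrast of the 2 histologies. The difference between the groups' median fold changes, type I minus interferon-gamma, was 0.45 with all arrays, 0.47 among numbered arrays and 0.25 among TM arrays.

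Members that lie next to each other in the genome were compared as well. Tap1 correlated at 0.94 with Psmb8 and at 0.91 with Psmb9, its neighbours on chromosome 17, and Ifit2 with Ifit3 at 0.92 on chromosome 19. Rsad2 and Cmpk2 correlated at 0.59 and Oasl1 and Oasl2 at 0.33. Oasl1 and Oasl2 parted in EMT 2, as given above.

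Upstream of the members, the interferon genes themselves had low values. Ifnb1 lay between 4.25 and 4.81 and Ifng between 3.05 and 4.17, and both were below the lower quartile over genes of the same array (5.57 to 5.86) in all 17 tumours, as were Ifna2, Ifna4, Ifna5 and Ifna11. The receptor subunits Ifnar1 and Ifngr1 ran from 8.07 to 9.40 and from 8.18 to 9.91 in EMT tumours and from 7.51 to 8.98 and 8.58 to 9.36 in Squamous tumours, with log2 changes of 0.17 (SE 0.19) and 0.08 (SE 0.23). In EMT 5, where most members were high, Ifnb1 was at 4.81, the highest of the tumours. The other TM arrays came next for Ifnb1, Squamous 9 at 4.78 and EMT 6 at 4.73. This rank cannot be told apart from the title format. Ifng was at 3.05 in EMT 5, the lowest, equal to its value on the other TM arrays.

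The other genes of the pathway were taken from lists of ligands, receptors and kinases, transcription factors, nucleic acid sensors, negative regulators, class I presentation genes and further induced genes. Of 125 listed genes 98 were measured, 0 passed the test in either direction, and 3 were higher and 2 lower at an unadjusted p under 0.05, against 8.08% and 6.27% of all genes. The largest changes by list were Cxcl9, a T cell attractant induced by interferon-gamma, at −1.56 (SE 1.04, adjusted p = 0.509), Tlr3, a sensor of double-stranded RNA, at −0.49, Stat3 at −0.35, Tap2 at −0.31, Il15 and Socs3 at −0.24 each, and Jak1 at 0.22. In the list of further induced genes, which holds Cxcl9, 21 of 39 were above 0 and 18 below, with a median of 0.02. Upp1, a uridine phosphorylase named after its values were seen, was at 1.52 there (SE 0.67, limma adjusted p = 0.332). Irf1, a factor induced by interferon-gamma, was at −0.11 (SE 0.31). Cxcl9 reached 11.28 in Squamous 8, 10.87 in Squamous 3 and 9.34 in Squamous 7, and lay at 7.79 in EMT 5 and 7.58 in the Papillary tumour. It was thus high in the Squamous tumours in which the interferon-gamma members were high, and lower in EMT 5 and the Papillary tumour, where most members were high.

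The non-member genes that correlated best with the type I mean over the numbered arrays were Ddx60 (0.91), Irgm2, Ms4a4c and Slfn8 (0.88 each) and Oas1a (0.87). For the interferon-gamma mean they were Irgm2 (0.98), Gbp6 (0.95), Ifi47 (0.94), Gbp7 (0.93) and AW112010 (0.91). Of these, Ms4a4c, Slfn8 and AW112010 were not in the pathway lists.

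Markers of other cell types moved with the members, and their part in the results was not tested. Over the numbered arrays the mean of 7 B and plasma cell markers correlated at 0.83 with the interferon-gamma mean and 0.68 with the type I mean, and that of 19 T and NK cell markers at 0.66 and 0.51. The B and plasma cell mean lay between 5.20 and 5.53 in EMT tumours and between 5.34 and 8.06 in Squamous tumours, with the highest value in Squamous 8. T and NK markers averaged 6.34 in Squamous 8, 6.05 in EMT 5 and between 5.24 and 5.63 in the other 15 tumours, and Ncr1, an NK cell receptor, was below the lower quartile over genes on each of the 17 arrays. That quartile was 5.57 to 5.86 by array. The T and NK mean of those 15 tumours lay within or below this range. So did the B and plasma cell mean in EMT tumours.

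Macrophage and monocyte markers (16 genes) averaged 11.87 in EMT 5 and 11.47 in EMT 6, above the Squamous range of 8.54 to 10.72, and correlated at 0.46 with the interferon-gamma mean and 0.41 with the type I mean over the numbered arrays. EMT 6 had a macrophage mean close to that of EMT 5, while its type I average was 0.71 against 2.77. Of the other leukocyte lists, 8 neutrophil markers correlated at 0.60 with the interferon-gamma mean and 0.54 with the type I mean, 9 dendritic cell markers at 0.57 and 0.44, and 7 general leukocyte markers at 0.57 and 0.52. The neutrophil mean ran from 7.02 in EMT 5 to 9.22 in EMT 2 among EMT tumours and from 8.44 to 10.05 in Squamous tumours, and the median log2 change of its markers was −1.06. The Papillary tumour had a B and plasma cell mean of 6.80, a T and NK cell mean of 5.57 and a macrophage mean of 9.36, all inside the Squamous range.

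**Figure D5:**
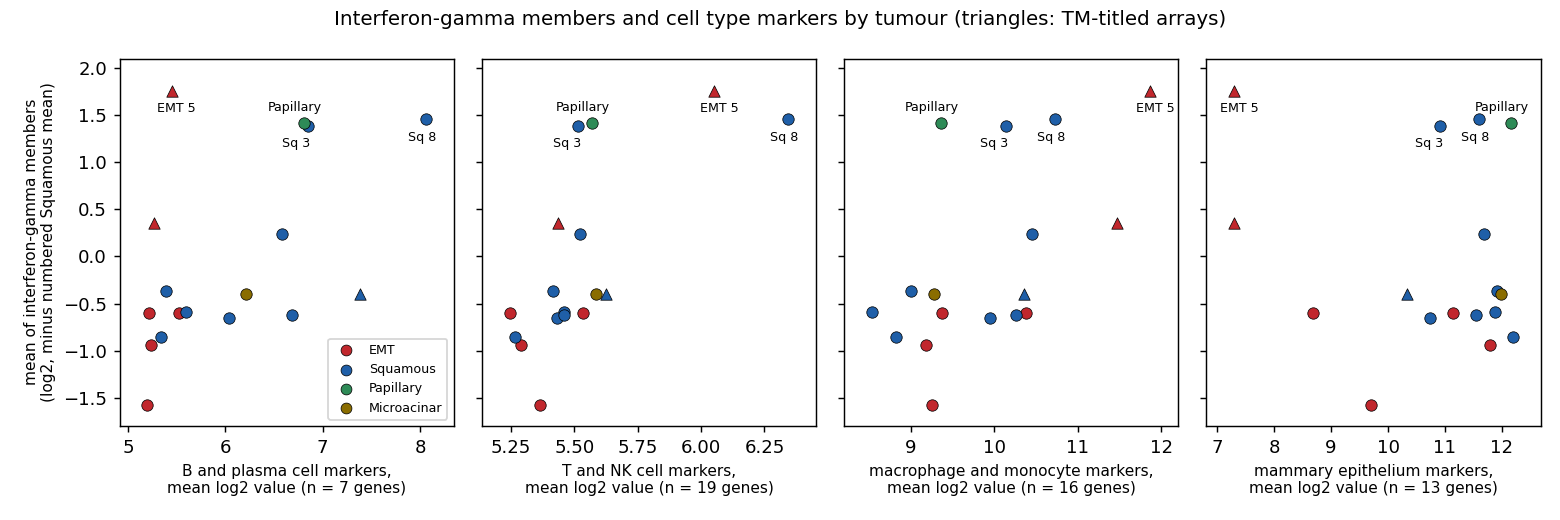
Mean of the interferon-gamma members in each tumour, minus the numbered Squamous mean, against the mean log2 value of markers of 4 cell types, with triangles for TM arrays. EMT 5, the Papillary tumour, Squamous 3 and Squamous 8 have similar interferon-gamma means at different marker levels.

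Where a member had several probe sets they did not always follow one another. The 11 members concerned had 15 further probe sets, of which 11 correlated above 0.5 with the one used over the numbered arrays and 7 had a fold change of the opposite sign. Iigp1 and Gbp2 were read alike by their other probe sets, with correlations of 0.99 each. The other probe sets of Cmpk2 and Rtp4 correlated at 0.82 and 0.81 with those used. Their log2 changes were −0.10 and 0.02, against −0.96 and −0.43. Their means over all arrays were 5.42 and 4.44, against 6.34 and 9.17. All 3 further probe sets of Tap1 stayed under 0.5. They had low values, with means over all arrays of 3.44, 5.70 and 3.44 against 8.24 for the one used.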

How the data were processed

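Per the labels' protocols, biotin-labelled cRNA from total RNA was hybridised to Affymetrix arrays. The authors deposited log2 values for 22690 probe sets, and their range shows the log2 scale; the normalization behind them is not given in the sources used here. No further normalization was applied. Of the probe sets 20380 are paired with 1 gene symbol in the platform annotation, 691 with several and 1555 with none, 64 control probe sets were left out, and 20351 matched RefSeq by gene identifier. A gene with several probe sets was read from the one with the highest mean, which gave 12393 genes.

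Histology labels defined the groups. The EMT minus Squamous difference was fitted in limma 3.58.1 (R 4.3.3), adding title format as a term, and p-values were adjusted by Benjamini-Hochberg over all genes, with calls at 0.05. Papillary and Microacinar tumours were not in this model. A deviation is a value minus its mean over the 8 numbered Squamous arrays. Counts, correlations and motif searches were made in Python 3.11.15 with pandas 2.3.3, numpy 2.4.6 and scipy 1.17.1, and plots in matplotlib 3.10.9. The model code was tested on simulated data. The members, groups, lists and rules were chosen with earlier results of these data known. By rule, tumour values are given for the 3 members of each group with the largest change, the 3 with the largest SD over the numbered arrays, and Irf7, Irf9 and Stat2; in the pathway lists the largest change per list and Ifnb1, Ifng, Ifnar1, Ifngr1 and Irf1 are named, and the 5 genes most like each group mean. Others were named after their values were seen.

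Alternatives covered the title format (no term, numbered arrays, TM arrays), quantile normalization, array medians taken off, probe sets averaged or kept apart, dim genes dropped, a trended and robust prior, array weights, all 17 tumours in 4 groups, tumours of a shared title number averaged, and each tumour left out. Added after the data were seen were the interaction, EMT 5 left out with the title format term, and each tumour left out among the numbered arrays.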

Additional observations from a re-analysis of the deposited data

Results flagged for a closer look

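Among 72 groups of values tested for a tumour far from the rest, 6 had one, and chance gives about 1 in 20. The groups hold correlated genes in the same tumours and are not independent, so that rate is no yardstick for the count. In 5 it was EMT 5 among the EMT tumours: Irf7 at 11.31, Oas2 at 9.60, Irgm1 at 9.76, Stat2 at 8.47 and Mx2 at 7.19, with the nearest other EMT tumour at 8.27, 7.82, 8.21, 7.05 and 6.42. In the remaining one Squamous 9 stood apart from the other Squamous tumours for Eif2ak2, at 7.29, with the nearest at 6.89. Both tumours were measured on arrays with TM titles, and the title format and the tumours that carry it cannot be told apart.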

How the results depend on the processing

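No member was called under any alternative, including each of the 15 fits that left out 1 tumour, where 0 to 14 genes were called over all genes, 14 of them without EMT 1, and 0 to 5 members had an unadjusted p under 0.05. That count was 6 among numbered arrays, 1 among TM arrays and 2 without EMT 5 and the title format term. Among numbered arrays, leaving out 1 tumour gave 0 to 12 such members and 32 to 33 members below 0. Among TM arrays the medians were 1.37 over all members, 1.71 for type I, 1.47 for interferon-gamma and 1.37 for the others. Leaving out 1 tumour gave medians of −0.52 to 0.0015 over all members, −0.35 to 0.21 for type I, −0.83 to −0.15 for interferon-gamma and −0.46 to −0.014 for the others, and type I minus interferon-gamma of 0.34 to 0.50. The lowest of each of these medians came from the fit without Squamous 9. That fit leaves only EMT tumours on TM arrays, so the title format term takes up EMT 5 and EMT 6. Its log2 changes are those of the numbered arrays and no separate result.

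Some uncalled members changed sign. On TM arrays alone the log2 changes of the 24 that did were Oas2 1.19, Ifit1 2.32, Irf9 0.37, Mx2 0.50, Rsad2 0.86, Ifih1 1.37, Dhx58 1.28, Gbp2 2.36, Gbp3 2.20, Iigp1 1.83, Igtp 1.68, Irgm1 1.25, Bst2 1.69, Tap1 0.24, Psmb8 1.03, Psmb9 1.09, Zbp1 2.37, Parp14 0.88, Ifi35 0.83, Lgals3bp 1.48, Rtp4 1.37, Cmpk2 0.53, Eif2ak2 0.27 and Adar 0.67. Without the title format term they were Ifit1 0.36, Mx2 0.041, Rsad2 0.044, Ifih1 0.10, Dhx58 0.080, Psmb8 0.061, Psmb9 0.11, Zbp1 0.13, Lgals3bp 0.021, Eif2ak2 0.15 and Adar 0.12. Among numbered arrays they were Oasl2 −0.45, Ifit2 −0.32, Ifit3 −0.39, Irf7 −0.22, Stat2 −0.21, Mx1 −0.16, Usp18 −0.44 and Trim30a −0.46. With array weights they were Oasl2 −0.41, Ifit2 −0.25, Ifit3 −0.27, Stat2 −0.015, Mx1 −0.056, Usp18 −0.10 and Trim30a −0.48. Without EMT 5 and the title format term they were Oasl2 −0.14, Ifit2 −0.043, Ifit3 −0.18, Irf7 −0.056, Stat2 −0.047, Usp18 −0.15, Trim30a −0.14 and Eif2ak2 0.032. Quantile normalization gave Mx2 0.067, Eif2ak2 0.042 and Adar 0.019, the mean of probe sets Dhx58 0.0018 and Trim30a −0.0060, and averaging the shared title number Eif2ak2 0.0011. The cause was not tested. Under subtracted array medians, a trended prior, all 17 tumours in 4 groups and genes above the median level 0 members changed sign. Leaving out 1 tumour, the ranges of those that did were Oasl2 −0.45 to 0.33, Ifit1 −0.74 to 0.22, Ifit2 −0.32 to 0.33, Ifit3 −0.39 to 0.21, Irf7 −0.22 to 0.44, Stat2 −0.21 to 0.25, Mx1 −0.16 to 0.20, Mx2 −0.15 to 0.023, Usp18 −0.44 to 0.47, Ifih1 −0.46 to 0.10, Dhx58 −0.45 to 0.0015, Irgm1 −0.52 to 0.035, Bst2 −0.75 to 0.068, Trim30a −0.46 to 0.37, Psmb8 −0.50 to 0.030, Ifi35 −0.37 to 0.019, Eif2ak2 −0.086 to 0.032 and Adar −0.21 to 0.056. The lower end of each of these ranges is the fit without Squamous 9, which repeats the log2 change among numbered arrays. No paired analysis was possible because the replicate numbers follow sample order and pair no tumours across histologies.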
